A study of Mus musculus with 16 samples.

Results

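Liver expression was compared between mice on a protein-rich diet with reduced carbohydrate and mice kept on AIN93G, a purified reference diet. The comparison takes the 4 libraries titled as high protein and the 4 titled as AIN93G control, which are 8 of the 16 libraries of the series, and covers all genes of the count table. The mice were male and carried the genotype Ercc1 d/-, in an F1 hybrid background of C57BL6J and FVBN, and snap-frozen liver was taken at 11 weeks of age. AIN93G was the only diet before randomisation at 8 weeks. The high-protein diet held 194% of the standard protein and 70% of the standard carbohydrate, and the diets were isocaloric and offered freely. The other groups, named here only for reference, ate a low-protein or a low-fat diet with more carbohydrate. Every group carried the Ercc1 genotype, so no group shows liver with intact Ercc1. The labels give neither the hour of sampling nor the time since the last meal.

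Ercc1 encodes a subunit of an endonuclease that cuts damaged DNA in nucleotide excision repair, and mice with too little of it age early. In the fed liver, insulin and sugar drive glycolysis and the synthesis of fat through the factors SREBP-1c and ChREBP. When carbohydrate is short, PPAR-alpha raises the genes of fatty acid oxidation, and glucagon and glucocorticoids raise amino acid breakdown, the urea cycle and gluconeogenesis. A protein-rich meal adds nitrogen that the urea cycle disposes of.

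Totals were 35243594 to 46051218 counts in the control libraries and 37317405 to 46899907 with high protein. Levels are given as CPM, counts scaled to a common depth on TMM-scaled library sizes, and differences as the log2 fold change of high protein over control from edgeR with its standard error (SE). Control 4 stood apart from the other controls: its genes deviated from their mean with a standard deviation of 1.29 log2 units, where controls 1 to 3 had 0.73, 0.76 and 1.01 and the high-protein libraries 0.59 to 0.83. On the first principal component of the 8 libraries, which held 37.4% of the variance, control 4 scored 139 and the others -41.7 to 10.6. The summed level of 20 kidney nephron genes ran from 91.9 to 5060 CPM of library totals in control, highest in control 3, and from 0.959 in high-protein 1 to 1510 with high protein, and none of the 20 was at 0 in all 8 libraries. The library numbers in the labels were 15, 16, 18 and 24 for control and 1, 2, 6 and 13 for high protein, so the order of the libraries and the diet cannot be told apart. List medians that take the other sign without control 4 are given with and without it. Albumin was the most abundant transcript in all 8 libraries at 5.31% to 8% of the counts, and all 14 hepatocyte genes of the marker list passed the filter.

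Ercc1 itself was counted 65, 46, 104 and 46 times in controls 1 to 4, or 1.89, 1.29, 1.96 and 1.41 CPM, and 80, 69, 60 and 47 times with high protein, or 1.70, 1.83, 1.62 and 1.27 CPM. These ranges overlap, and since all animals share the genotype they check no label.

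No gene of 17833 tested passed an adjusted p of 0.05 in edgeR's quasi-likelihood test, and the smallest adjusted p was 0.762 (0% called). At an unadjusted p under 0.05 there were 1109 genes (6.22%), of which 442 were higher with high protein (2.48%) and 667 lower (3.74%). DESeq2 called 1 gene, the long noncoding RNA Gm30692. The 4 high-protein libraries all lay above the 4 controls for 199 genes (1.12%) and all below for 150 genes (0.841%). In either direction these were 349 genes (1.96%). Full separation in either direction makes up a share of 0.029 of the 70 ways to assign the 8 libraries. Groups that do not overlap were thus no more frequent than that share. Over all genes 41.7% had a fold change above 0, with a median log2 fold change of -0.06. Below, a gene or list is described by its levels and counts, and no gene named passed the test. The lists were chosen with earlier results of these data known. The shares over all genes given beside them are therefore background and no test of a list. As these are whole-liver samples, fewer cells of a type and less RNA per cell cannot be told apart.

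**Figure D1:**
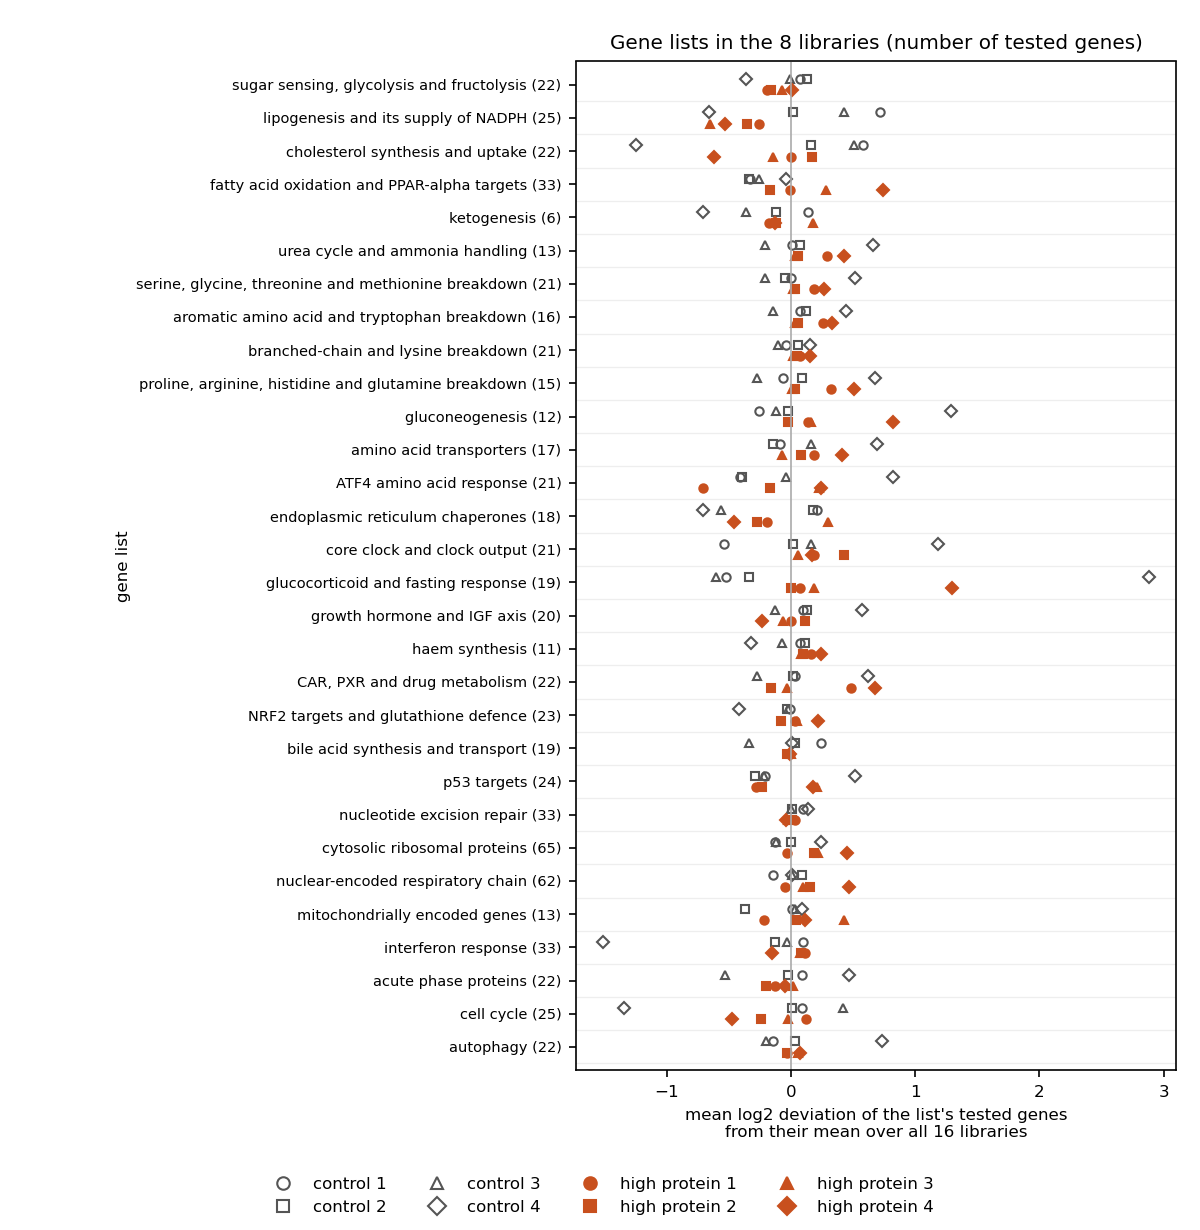
Mean log2 deviation of each program list (horizontal axis, log2 units; number of tested genes in brackets) in each library, with open grey symbols for the 4 controls and filled orange symbols for the 4 high-protein libraries. Control 4, the open diamond, lies at 2.88 for the glucocorticoid and fasting list while the other controls lie between -0.60 and -0.34.

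The synthesis of fat was the program with the lowest median. Of 25 genes of lipogenesis and its supply of NADPH, 3 were above control and 10 were lower at an unadjusted p under 0.05, against 3.74% of all genes, with none higher. The median log2 fold change of the list was -0.68, and it was -0.80 without control 4 and -0.58 without high-protein 4. Mean deviations of the list were 0.72, 0.02, 0.43 and -0.66 in controls 1 to 4, and -0.26, -0.35, -0.65 and -0.53 with high protein. Control 4 was thus as low as the high-protein libraries, and the groups overlapped.

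Acacb makes malonyl-CoA at the mitochondrial surface, where it restrains the entry of fatty acids. Its level was 73.8, 33.9, 83.0 and 87.2 CPM in controls 1 to 4 and 21.0, 22.2, 19.5 and 22.3 CPM with high protein. The groups did not overlap, and Acacb was low in control 2 among the controls. The log2 fold change was -1.71 (SE 0.45), between -1.94 and -1.58 when any of the 8 libraries was left out. Fasn, the fatty acid synthase, stood at 1167, 520.5, 982.5 and 138.9 CPM in controls 1 to 4 and at 283.0, 283.6, 208.9 and 123.6 CPM with high protein. Controls 1 to 3 were above every high-protein library for Fasn and control 4 was not. Its log2 fold change was -1.64 (SE 0.52), and -1.99 without control 4.

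The promoters of Acacb, Fasn and Pnpla3 are shown because these 3 genes of the list, which includes the lipid droplet enzyme Pnpla3, are among the lowest with high protein and their levels can be set beside the sequence. Each is the 250 bases before the first listed RefSeq start of the gene, 5′ to 3′ on the strand of the gene, on build GRCm38.p6. Capitals mark CCAAT or its reverse complement ATTGG, the box bound by the factor NF-Y, which acts beside SREBP on such promoters.
Acacb: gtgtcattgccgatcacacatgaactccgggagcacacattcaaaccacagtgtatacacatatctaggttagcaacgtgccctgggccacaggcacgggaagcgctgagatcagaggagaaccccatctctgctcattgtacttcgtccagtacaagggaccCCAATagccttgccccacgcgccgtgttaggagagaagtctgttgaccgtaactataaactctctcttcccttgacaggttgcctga
Fasn: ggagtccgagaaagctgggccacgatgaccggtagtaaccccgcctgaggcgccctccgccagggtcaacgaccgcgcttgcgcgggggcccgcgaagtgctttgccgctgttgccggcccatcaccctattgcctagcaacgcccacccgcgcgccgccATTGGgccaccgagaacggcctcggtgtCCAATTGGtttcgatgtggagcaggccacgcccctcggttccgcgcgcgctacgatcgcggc
Pnpla3: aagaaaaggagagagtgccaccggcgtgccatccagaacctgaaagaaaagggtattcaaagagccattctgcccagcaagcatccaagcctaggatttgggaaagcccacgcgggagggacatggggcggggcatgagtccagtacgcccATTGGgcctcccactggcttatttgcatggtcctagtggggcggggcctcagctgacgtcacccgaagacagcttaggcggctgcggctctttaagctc
Acacb lies at chr5:114165268-114165517 on the plus strand, Fasn at chr11:120824548-120824797 on the minus strand and Pnpla3 at chr15:84167566-84167815 on the plus strand. The Acacb stretch lies inside the counted gene, which spans chr5:114146535-114250761, so it precedes an internal start. Which start is used in these livers was not tested, and the level of Acacb covers the whole gene. Acacb and Pnpla3 hold 1 match each and Fasn holds 3, of which 2 overlap. Of all 32851 promoters in RefSeq, a share of 33.8% holds such a match within 250 bases. For the list the share was 51.9% of 27 promoters of 22 genes, for cholesterol synthesis 82.4% of 17 promoters of 14 genes, and for fatty acid oxidation 51.6% of 31 promoters of 26 genes. A match describes the letters only.

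Other genes of the list below control included the suppliers of acetyl-CoA and NADPH and a pair of lipases. Acly, which makes cytosolic acetyl-CoA, was at 510.1, 255.3, 457.5 and 64.3 CPM in controls 1 to 4 and at 119.2 to 192.5 CPM with high protein (log2 fold change -1.02, SE 0.46). Me1, a source of NADPH, had a log2 fold change of -1.05 (SE 0.34), and Acss2, which activates acetate, stood at 226.8, 179.4, 245.9 and 50.9 CPM in control and 71.1 to 109.1 CPM with high protein. Pnpla3 was at 3.08, 0.224, 0.602 and 2.46 CPM in controls 1 to 4 and at 0.135 to 0.459 CPM with high protein, with overlap through control 2. Pnpla5, a related lipase, had no count in any high-protein library and 36, 3, 8 and 2 counts in controls 1 to 4. Against a floor of 3 counts over the high-protein group it was at least 16.6-fold lower, with the median of the list unchanged at -0.68 when Pnpla5 was set at that bound. Most of its control counts came from control 1.

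**Figure D2:**
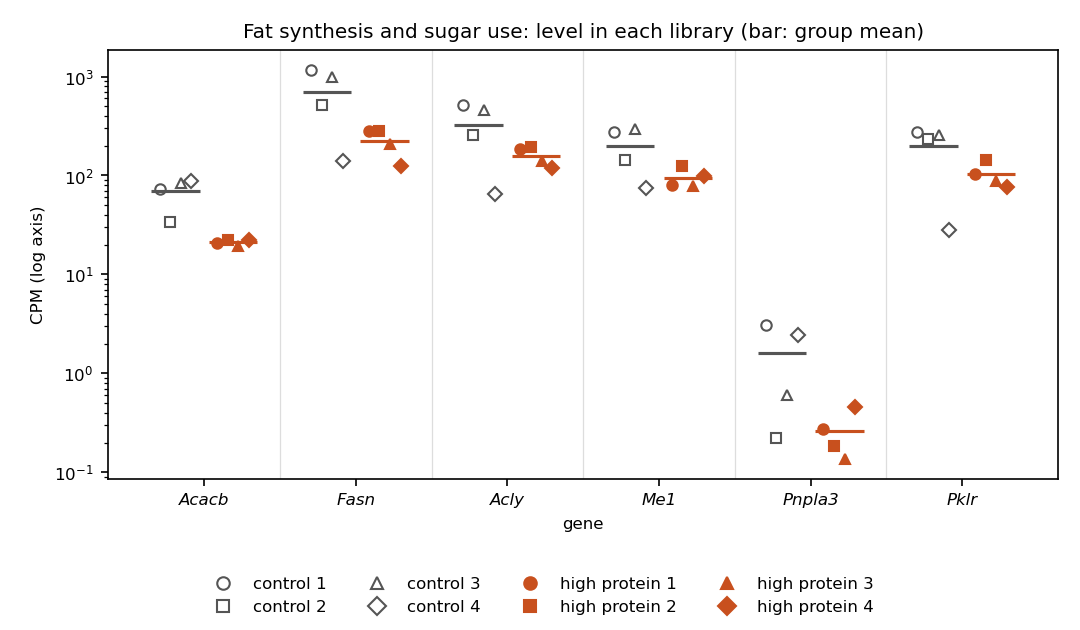
CPM of 6 genes of fat synthesis and sugar use in each of the 8 libraries on a log axis, with open grey symbols for controls, filled orange symbols for high protein and a bar at each group mean. Acacb is below 23 CPM in all 4 high-protein libraries and 33.9 CPM or above in all controls, while Fasn, Acly and Pklr are lowest among the controls in control 4.

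Cholesterol synthesis lay in the same direction. Of 22 genes 2 were above control, 2 were lower at an unadjusted p under 0.05 (3.74% of all genes) and the median was -0.38. The median was -0.53 without control 4, -0.20 without control 1 and -0.29 without high-protein 4, where 6 genes were above control. Mean deviations were 0.58, 0.16, 0.51 and -1.25 in controls 1 to 4 and 0.00, 0.17, -0.14 and -0.62 with high protein, so control 4 was the lowest library. Lss, the lanosterol synthase, was the exception to this overlap, at 70.8, 53.9, 63.6 and 63.7 CPM in control and 44.5, 46.5, 42.2 and 34.1 CPM with high protein. Its log2 fold change was -0.59 (SE 0.13), and -0.66 to -0.50 when any library was left out. Hmgcs1, which condenses acetyl-CoA early in the pathway, was at 413.4, 247.4, 375.7 and 43.3 CPM in control and 133.8, 252.9, 217.2 and 78.8 CPM with high protein (log2 fold change -0.66, SE 0.48).

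Sugar use was less uniform. Of 22 genes of sugar sensing, glycolysis and fructolysis 7 were above control, none reached an unadjusted p of 0.05 and the median was -0.06, equal to that of all genes. Pklr, the liver pyruvate kinase and a known ChREBP target, was at 274.5, 232.2, 256.9 and 28.3 CPM in controls 1 to 4 and at 103.0, 142.7, 87.3 and 77.3 CPM with high protein. The high-protein libraries lay between control 4 and the other controls. Its log2 fold change was -0.95 (SE 0.45), and -1.32 without control 4. Tkfc, the triokinase of fructose use, was at 452.9, 456.9, 432.3 and 155.7 CPM in control and 245.4 to 320.3 CPM with high protein.

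Fatty acid oxidation and PPAR-alpha targets lay above control. Of 33 genes 31 had a fold change above 0, 10 were higher at an unadjusted p under 0.05 (2.48% of all genes) with none lower. The high-protein libraries of 6 genes all lay above the controls, against 1.12% of all genes. The median log2 fold change was 0.36, and 0.29 to 0.40 when any library was left out. Mean deviations were -0.33, -0.34, -0.26 and -0.04 in controls 1 to 4 and -0.01, -0.17, 0.28 and 0.74 with high protein, highest in high-protein 4. Without high-protein 4, 26 of the 33 were above control.

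The members without overlap were Slc25a20, Cpt2, Acadl, Acads, Hadh and Eci1, which carry or oxidise acyl chains in mitochondria. Slc25a20, which moves acyl-carnitine across the inner membrane, was at 73.1, 73.0, 64.1 and 83.8 CPM in controls 1 to 4 and 92.6, 98.2, 131.6 and 136.4 CPM with high protein. Eci1, an enoyl-CoA isomerase for unsaturated chains, was at 79.5, 83.3, 68.6 and 60.3 CPM in control and 85.8, 93.9, 124.0 and 122.9 CPM with high protein (log2 fold change 0.55, SE 0.15). High-protein 3 and 4 were the highest libraries for both. Acadl, a long-chain acyl-CoA dehydrogenase, was at 185.9 to 202.7 CPM in control and 204.9 to 291.4 CPM with high protein (0.32, SE 0.12). Cpt1a, the malonyl-CoA-sensitive entry step, was at 364.8, 393.7, 382.7 and 565.3 CPM in control and 527.0, 495.0, 526.8 and 659.2 CPM with high protein (0.37, SE 0.15). Control 4 alone brought Cpt1a to overlap, and the difference was 0.53 without it. Creb3l3, a fasting-induced factor that works with PPAR-alpha, was at 292.1, 361.3, 266.3 and 244.8 CPM in control and 418.3, 360.0, 443.8 and 511.3 CPM with high protein (0.57, SE 0.15).

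**Figure D3:**
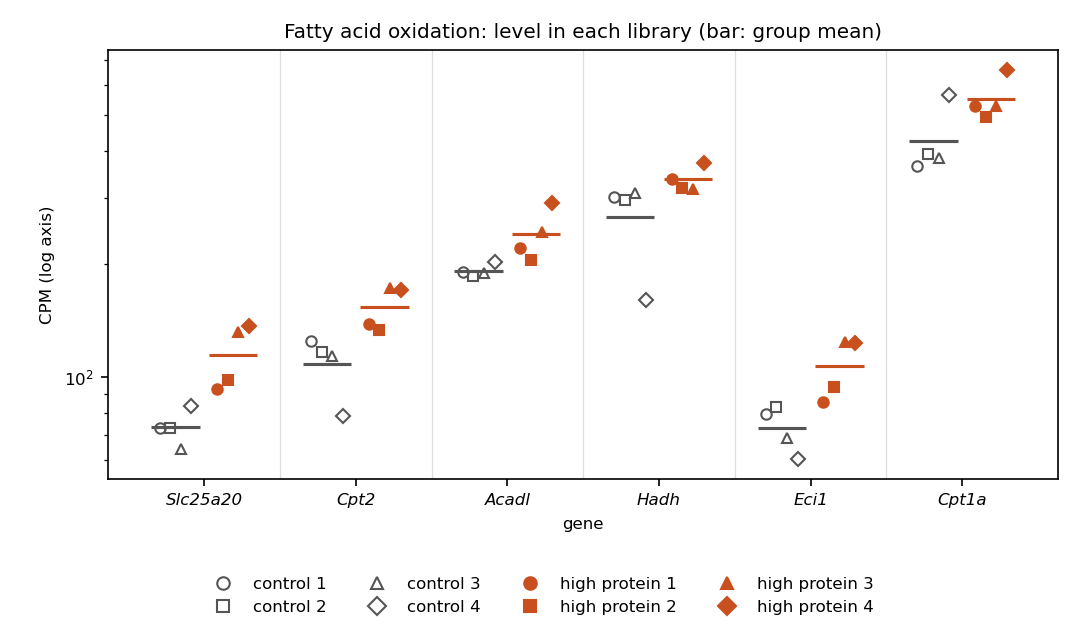
CPM of 6 genes of fatty acid oxidation in each of the 8 libraries on a log axis, with open grey symbols for controls, filled orange symbols for high protein and a bar at each group mean. The groups do not overlap for Slc25a20, Cpt2, Acadl, Hadh and Eci1, and overlap for Cpt1a.

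Ketone body synthesis was mixed. Of 6 genes 4 were above control, and the median of 0.24 was 0.06 without control 4. Bdh1, which makes beta-hydroxybutyrate, was at 343.6, 341.0, 297.6 and 30.8 CPM in control and 352.5 to 401.4 CPM with high protein, a difference of 0.56 (SE 0.44) that was 0.18 without control 4. Fgf21, a fasting hormone of the liver, was at 0.668, 1.23, 0.0940 and 0.0921 CPM in control and 0.0638, 0.556, 2.38 and 1.19 CPM with high protein.

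Amino acid breakdown, the urea cycle and gluconeogenesis depended on control 4. Of 13 tested urea cycle and ammonia genes 5 were above control with a median of -0.11, and without control 4, 11 were above with a median of 0.23. For gluconeogenesis the count went from 4 to 10 of 12 and the median from -0.22 to 0.45, and for amino acid transporters from 5 to 11 of 17 and from -0.17 to 0.16. Without high-protein 4 alone, the medians were -0.20 for the urea cycle, -0.38 for gluconeogenesis and -0.20 for the transporters. Without both control 4 and high-protein 4, a pair chosen after the data were seen, they were 0.16, 0.24 and 0.11. Without control 4, 48.5% of all genes were above control. The proline, arginine, histidine and glutamine list was above control either way, in 11 of 15 genes with it and 13 without (medians 0.18 and 0.26), and the branched-chain and lysine list in 14 and 15 of 21 (0.04 and 0.08). In the serine, glycine, threonine and methionine list 10 of 21 were above with it and 16 without (-0.01 and 0.06), and in the aromatic list 8 and 12 of 16 (0.03 and 0.09).

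Pck1, which commits carbon to gluconeogenesis, was at 2181, 2626, 2729 and 16340 CPM in controls 1 to 4 and 4062, 4446, 4184 and 6239 CPM with high protein. Every high-protein library was above controls 1 to 3 and below control 4. The log2 fold change was -0.33 (SE 0.52), and 0.91 without control 4. Tat, which starts tyrosine breakdown, was at 1214, 966.4, 937.8 and 21330 CPM in control and 2520, 1589, 1633 and 4612 CPM with high protein, and its log2 fold change of -1.24 (SE 0.80) became 1.31. Sds, the serine dehydratase, was at 170.1, 205.4, 206.2 and 2140 CPM in control and 504.6, 259.4, 196.3 and 756.3 CPM with high protein (-0.67, SE 0.72, and 1.14 without control 4). High-protein 1 and 4 carried the higher Sds levels.

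Cps1 and Ass1, which start the urea cycle and join citrulline to aspartate, had smaller differences. Cps1 was at 5271, 5500, 3917 and 10260 CPM in control and 6341, 4681, 4900 and 6137 CPM with high protein (-0.18, SE 0.22, and 0.16 without control 4). Ass1 was at 2940, 3916, 3616 and 9956 CPM in control and 4295, 3491, 3910 and 5886 CPM with high protein (-0.22, SE 0.31, and 0.32 without control 4). Slc25a13, the mitochondrial aspartate-glutamate carrier, did not overlap, at 153.0 to 179.4 CPM in control and 199.1 to 233.7 CPM with high protein (0.33, SE 0.10). Asns, the asparagine synthetase that low amino acid supply induces through ATF4, was at 1.68 to 3.76 CPM in control and 1.54 to 3.44 CPM with high protein. Chac1, an ATF4 target that degrades glutathione, was at 7.78, 10.1, 2.78 and 23.6 CPM in control and 1.25, 3.31, 4.82 and 1.03 CPM with high protein (-2.09, SE 0.57, and -1.41 without control 4).

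The glucocorticoid and fasting list had the widest dependence on control 4. Of 19 genes 3 were above control with a median of -0.57, and without control 4, 17 were above with a median of 0.91. Mean deviations were -0.52, -0.34, -0.60 and 2.88 in controls 1 to 4 and 0.07, 0.00, 0.19 and 1.30 with high protein. Igfbp1, an insulin-repressed secreted protein, was at 133.0, 101.5, 68.1 and 9721 CPM in control and 93.8, 86.4, 187.6 and 1376 CPM with high protein. Cdkn1a, the cell cycle inhibitor p21, was at 22.3, 10.6, 8.89 and 554.2 CPM in control and 14.2, 14.9, 37.2 and 28.9 CPM with high protein. Without both control 4 and high-protein 4, the highest library of each group, 15 of 19 were above control with a median of 0.66. Leaving out this pair was chosen after the data were seen. The part of feeding state or sampling hour in these values was not tested.

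**Figure D4:**
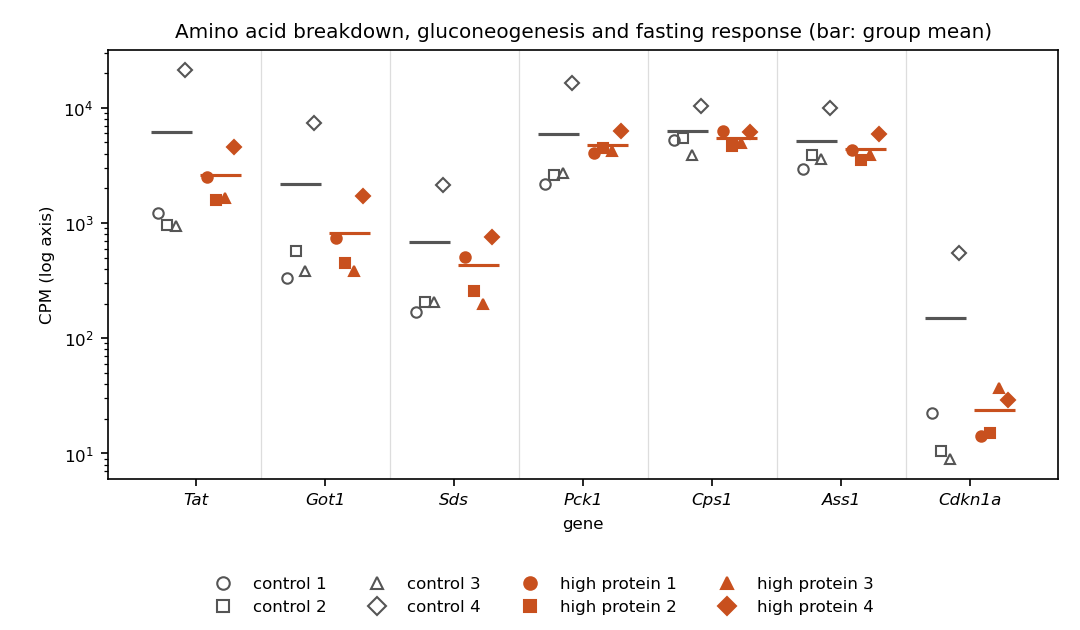
CPM of 7 genes of amino acid breakdown, gluconeogenesis, the urea cycle and the fasting response in each of the 8 libraries on a log axis, with open grey symbols for controls, filled orange symbols for high protein and a bar at each group mean. Control 4, the open diamond, is the highest of the 8 libraries for all 7 genes.

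Clock genes also differed between libraries. Noct, a rhythmic nocturnin that acts on NADP(H), was at 28.0, 31.1, 47.8 and 24.1 CPM in control and 150.8, 118.8, 43.5 and 156.6 CPM with high protein (1.84, SE 0.53), with high-protein 3 at the level of the controls. Arntl, the core activator Bmal1, was at 9.52, 0.953, 0.677 and 56.8 CPM in control and 0.744, 1.54, 3.95 and 1.57 CPM with high protein. In the list of 21 clock genes 9 were above control with a median of -0.29, and 14 were above with a median of 0.21 without control 4.

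The lists of the growth hormone axis, of drug metabolism and of bile acids had medians of -0.22, 0.24 and 0.04, with 6 of 20, 15 of 22 and 11 of 19 genes above control. When any library was left out these medians ran from -0.36 (without high-protein 2) to -0.16, from 0.09 (without high-protein 4) to 0.36 (without control 4) and from -0.07 (without control 3) to 0.12 (without control 1). Socs2, a growth hormone target, was at 60.5, 73.3, 28.3 and 360.7 CPM in control and 26.2 to 44.9 CPM with high protein (-1.83, SE 0.59, and -0.56 without control 4). Igf1 was at 448.2 to 634.1 CPM in control and 498.8 to 649.0 CPM with high protein (0.03, SE 0.13). Gsta2, a glutathione transferase, was at 35.2, 60.6, 40.8 and 37.9 CPM in control and 74.2, 41.4, 72.3 and 107.5 CPM with high protein (0.76, SE 0.30). Cyp7a1, the rate-limiting enzyme of bile acid synthesis, was at 266.4, 325.0, 162.3 and 170.2 CPM in control and 554.3, 265.9, 39.4 and 370.7 CPM with high protein, with the highest and lowest library both in the high-protein group.

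Ribosomal protein and respiratory chain genes lay slightly above control. Of 65 cytosolic ribosomal protein genes 62 were above control, with a median of 0.20 that was 0.31 without control 4 and 0.11 without high-protein 4. Of 62 nuclear-encoded respiratory chain genes 55 were above control, with a median of 0.20 that was 0.09 without high-protein 4. Mean deviations of the ribosomal list were -0.13, 0.00, -0.12 and 0.24 in controls 1 to 4 and -0.03, 0.19, 0.22 and 0.45 with high protein. Those of the respiratory chain list ran from -0.14 to 0.09 in control and from -0.05 to 0.47 with high protein, so both lists overlapped. Only 1 ribosomal gene did not overlap, against 1.12% of all genes. It was Rplp1, a ribosomal stalk protein, at 159.0 to 180.3 CPM in control and 180.7 to 247.5 CPM with high protein (0.37, SE 0.14). Reads of ribosomal protein genes can be shared with their pseudogenes, so single values are uncertain.

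DNA repair and p53 target lists lay near the median of all genes. Of 33 nucleotide excision repair genes 9 were above control with a median of -0.07. Ercc8, which acts in repair at stalled transcription, was at 5.34, 3.81, 4.83 and 6.11 CPM in control and 3.81, 3.71, 2.87 and 2.75 CPM with high protein (-0.61, SE 0.18), a gap of under 0.01 CPM between control 2 and high-protein 1. Ddb2, a damage sensor and p53 target, was at 2.58, 4.2, 3.06 and 3.16 CPM in control and 5.59, 4.39, 5.22 and 4.67 CPM with high protein (0.61, SE 0.17). Of 24 p53 targets 14 were above control with a median of 0.06, which ran from -0.04 without control 2 to 0.13 without control 1. Sesn1 was at 12.3 to 14.2 CPM in controls 1 to 3, 381.9 CPM in control 4 and 9.96 to 13.1 CPM with high protein.

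Interferon response genes were above control in 29 of 33 with a median of 0.30, and in 17 with a median of 0.03 without control 4, whose mean deviation was -1.51 against -0.13 to 0.10 in the other controls. Of immune cell markers, 11 of 13 tested T and NK cell genes were above control (median 0.58, and 0.41 without control 4). The summed level of all 15 genes of that list was 3.41 to 8.77 CPM of library totals in control and 7.14 to 9.50 CPM with high protein. Of 13 Kupffer cell genes 12 were above control, and their summed level was 257 to 442 CPM of library totals in control and 374 to 449 CPM with high protein. The ranges overlapped, and the part of cell makeup in the results was not tested.

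Kidney and bile duct transcripts followed single libraries. Of 20 kidney genes 1 was above control with a median of -0.88, and the median was 1.74 without control 3. Of 11 cholangiocyte genes 1 was above control with a median of -0.62, and 0.48 without control 3, in which the summed cholangiocyte level was 269 CPM of library totals against 37.5 to 67 in the other controls and 36.6 to 92.4 with high protein. With the kidney level as a covariate the log2 fold changes were -1.69 for Acacb, -0.60 for Lss and 0.65 for Slc25a20, and 0 of 89 named genes reversed. The medians of 3 of the 41 lists took the other sign.

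Protein-coding genes whose groups did not overlap, chosen as the smallest p-values above 1 CPM, included several outside these programs. Nprl2, a subunit of the GATOR1 complex that restrains mTORC1 when amino acids are short, was at 12.2, 11.7, 11.1 and 11.6 CPM in control and 15.7, 15.2, 14.0 and 16.4 CPM with high protein (0.40, SE 0.11). Ttl, the tubulin tyrosine ligase, was at 7.29, 7.06, 8.52 and 7.34 CPM in control and 5.89, 5.03, 5.39 and 4.99 CPM with high protein (-0.50, SE 0.14). Rfc3, a subunit of the clamp loader of DNA replication, was at 5.97 to 7.35 CPM in control and 4.59 to 5.06 CPM with high protein (-0.45, SE 0.13). These 3 genes had narrow ranges in both groups, and their log2 fold changes stayed between 0.37 and 0.44, -0.56 and -0.42, and -0.48 and -0.37 when any library was left out. Both traits follow in part from the choice by small p-values and groups without overlap, so they lend these genes no further weight. Sftpa1, a surfactant protein of lung, was at 3.22, 2.13, 4.06 and 2.76 CPM in control and 9.67, 4.50, 5.11 and 26.7 CPM with high protein (1.91, SE 0.45, and 1.09 without high-protein 4).

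The series title names a decline of transcription that depends on gene length, so a slope of log2 level on log10 genomic length was computed in each library over 14252 protein-coding genes. The slopes were 0.035, -0.095, 0.132 and 0.11 in controls 1 to 4 and -0.089, 0.013, -0.089 and -0.113 with high protein. Control 2 lay among the high-protein libraries and high-protein 2 near control 1. The difference of the means was -0.115 (exact two-sided permutation p = 0.114, over 70 assignments with a smallest possible p of 0.029). Long genes also have long exon sequence, with a median summed exon length of 2368 bases in genes under 10 kb and 9132 bases in genes over 200 kb. With exon length as a second term, chosen after the data were seen, the difference was -0.055 (exact two-sided permutation p = 0.514).

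Genes were then put into 6 length classes with bounds at 10, 30, 60, 100 and 200 kb. From the shortest class (3473 genes) to the longest (689 genes) the median log2 fold changes were 0.04, -0.05, -0.12, -0.15, -0.15 and -0.18. Without control 4 these medians were 0.07, 0.02, -0.04, -0.05, -0.09 and -0.17. Control 3 stood at 0.27 in the longest class, against -0.18 to -0.04 in the other controls and -0.18 to 0.04 with high protein. Control 3 was also the library with the highest kidney level. The part of kidney transcripts in the slopes and length classes was not tested.

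**Figure D5:**
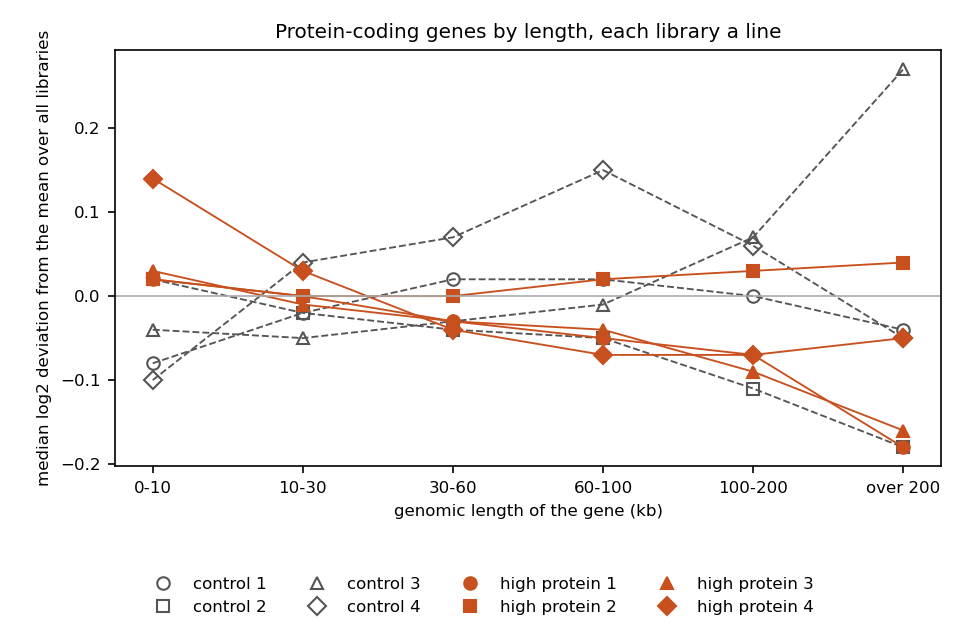
Median log2 deviation from the mean over all 16 libraries (vertical axis) of protein-coding genes in 6 classes of genomic length (horizontal axis, kb), 1 line per library, dashed grey for controls and solid orange for high protein. In genes over 200 kb control 3 lies at 0.27 and the other 7 libraries between -0.18 and 0.04.

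The same high-protein libraries were set against the other modified diets. No gene passed an adjusted p of 0.05 in edgeR against low protein (0%) or against low fat (0%), with 922 genes (5.17%) and 1620 genes (9.08%) at an unadjusted p under 0.05, and DESeq2 called 23 and 81. The lipogenesis list had medians of -0.59 against low protein and -0.70 against low fat, beside -0.68 against control. Its mean deviations were -0.41, -0.40, 0.41 and 0.61 in low-protein libraries 1 to 4 and 0.15 to 0.40 with low fat. Low-protein 1 and 2 thus lay within the high-protein range of -0.65 to -0.26. Acacb had log2 fold changes of -1.13 and -1.46, beside -1.71. Its level ran from 17.9 to 101.0 CPM with low protein, which overlapped the 19.5 to 22.3 CPM with high protein. With low fat it ran from 44.8 to 70.6 CPM. The fatty acid oxidation list had medians of 0.15 and 0.19, beside 0.36. The gluconeogenesis list had medians of 0.46 and 0.42, beside -0.22 against control. Its median against control was 0.45 without control 4 and 0.24 without control 4 and high-protein 4. The urea cycle list had medians of 0.31 and 0.41, beside -0.11 against control. Its median against control was 0.23 without control 4 and 0.16 without control 4 and high-protein 4. The medians against the other diets include high-protein 4. For B cell genes the medians were -0.88 against low protein and -1.21 against low fat, beside -0.27 against control. The T and NK cell list had medians of -0.19 and -0.57, beside 0.58. For the interferon response they were -0.08 and -0.32, beside 0.30, and for Kupffer cell genes -0.02 and -0.16, beside 0.20. These lists were thus above control but not above the other diets. These comparisons share the 4 high-protein libraries, so their values are set side by side and are not independent of each other.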

How the data were processed

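RNA sequencing of liver gave 1 library per mouse, and groups were taken from the sample titles. The deposited values are raw counts: 1 table by the authors gives whole numbers of reads for each gene, with summed exon length in bases. Per the submitters' processing notes, the build was GRCm38.p6 and the tools were edgeR 3.32.1, Subread 1.6.4 with featureCounts, STAR 2.7.0f and Trimmomatic 0.39. Whether counting used strand is not given in the sources used here, so a gene and an antisense partner that overlaps it may share reads. Per the file headers the rows are gene identifiers, of which 53861 of 54752 matched GENCODE M21 with version and position, 862 matched without version and 29 did not match.

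Genes passing filterByExpr (17833) were scaled with TMM factors and tested in edgeR 4.0.16 (R 4.3.3) by the quasi-likelihood test, two-sided, with 4 diet means over all 16 libraries (12 residual degrees of freedom) and Benjamini-Hochberg adjustment at 0.05. The SE is the log2 fold change divided by the root of its F statistic. Slopes used log2 CPM with a prior count of 2. Between any 2 libraries of a diet, in all 4 diets, chi-square over its degrees of freedom was 47.4 or more for genes with 20 or more counts, so none was a repeat. Litters and cages are not in the labels, and p-values describe the spread among these animals. Gene counts per library limit precision for genes under 1 CPM.

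The members and the 41 gene lists were chosen with earlier results of these data known. Named genes are the 2 members of each program list and the 1 of each cell list with the smallest p, up to 8 non-overlapping protein-coding genes in each direction at 1 CPM or more, and a set of genes of these programs. Other genes named as members of a list were chosen after their values were seen. Some genes named by the rule are not reported here. Alternatives used DESeq2 1.42.0, limma 3.58.1, RLE and upper-quartile factors, other filters, a replicate block, a kidney covariate and leaving out libraries. The steps were tested on simulated data with known changes.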

Additional observations from a re-analysis of the deposited data

Results flagged for a closer look

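Levels of the named genes and the means of the lists were checked for a library far from the other 3 of its diet, by a rule that chance meets in about 1 in 20 groups. It was met in 25 of 178 groups of gene levels, 23 of them by control 4, and in 8 of 82 groups of list means, 5 of them by control 4.

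Among genes of amino acid breakdown and gluconeogenesis, control 4 was at 116.1 CPM for Sdsl, 21330 for Tat, 261.8 for Acmsd, 7401 for Got1, 16340 for Pck1, 9956 for Ass1, 2140 for Sds and 148.3 for the transporter Slc1a2, each above the other controls. Among stress, fasting and growth genes it was at 162.0 CPM for Atf3, 1736 for Herpud1, 554.2 for Cdkn1a, 1792 for Gadd45g, 381.9 for Sesn1, 360.7 for Socs2, 54.4 for Igfbp3, 120.4 for Hmox1 and 55.5 for Wipi1, again each above the other controls. The same library was at 56.8 CPM for Arntl, 32.9 for Cyp2b10, 627.0 for Abcg8, 16.5 for Orm3, 16.7 for Utp14b and 565.3 for Cpt1a. Cyp2b10, a target of the receptor CAR, was at 0.207 to 0.436 CPM in the other controls, and Atf3 at 1.54 to 1.93 CPM.

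Outside control 4, Aqp2, a water channel of kidney collecting duct, was at 23.2 CPM in control 3. Rfc3 was at 5.06 CPM in high-protein 2, against 4.59 to 4.61 in the other high-protein libraries.

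For lists, control 4 had mean deviations of 1.29 for gluconeogenesis, 2.88 for the glucocorticoid and fasting list, 0.52 for p53 targets, -0.42 for NRF2 targets and -1.51 for the interferon response. High-protein 4 had 1.30 for the glucocorticoid and fasting list and -0.15 for the interferon response, and high-protein 3 had 0.18 for ketogenesis. Control 4 and high-protein 4 were thus the highest of their groups for the glucocorticoid and fasting list and the lowest for the interferon list.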

How the results depend on the processing

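Against control 0 genes were called in the 18 alternatives run in edgeR or limma, and DESeq2 called 1. Against low protein and low fat DESeq2 called 23 and 81 genes where edgeR called 0. The count at an unadjusted p under 0.05, 1109, was 1796 with no low-count filter, 336 with only the 8 compared libraries and 2143 without control 3 and high-protein 1, an alternative chosen after the data were seen, and it ran from 749 to 2056 when 1 library was left out, with 1865 without control 2 and 2056 without control 3; the cause was not tested. Genes whose groups do not overlap numbered 349, and 320 and 267 under the alternatives. The length slope difference ran from -0.162 to -0.086 when 1 library was left out.

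Replicate numbers of the titles name the samples only: same-numbered deviations correlated at 0.26, -0.2, -0.02 and 0.28. With the replicate block 0 genes were called in each of the 3 comparisons, 824 genes were at an unadjusted p under 0.05, the slope difference was -0.115 (exact permutation p = 0.25), and Pck1 was at 0.07.

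Of 1687 fold changes of named genes under alternatives, 1630 kept their direction and 57, in 20 genes, reversed. With limma-voom quality weights the reversed values were Sdsl 0.29, Tat 0.91, Acmsd 0.06, Got1 0.43, Atf3 0.80, Herpud1 0.37, Cdkn1a 0.41, Hmox1 0.46, Ercc1 0.01, Pck1 0.83, Cps1 0.03, Ass1 0.25, Sds 0.78, Fgf21 -0.29, Igf1 -0.03 and Cyp7a1 -0.40. Without control 4 and high-protein 4, a pair chosen after the data were seen, they were Sdsl 0.28, Tat 0.88, Acmsd 0.05, Got1 0.29, Atf3 0.88, Herpud1 0.52, Cdkn1a 0.66, Hmox1 0.43, Abcg8 0.01, Pck1 0.75, Cps1 0.11, Ass1 0.16 and Sds 0.72. Without control 3 and high-protein 1 they were Aqp2 0.80, Ercc1 0.04, Igf1 -0.09 and Cyp7a1 -0.17, and with upper-quartile factors Ercc1 0.00.

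When 1 library was left out, fold changes ran from -0.79 to 0.16 for Abcg8, -0.64 to 0.15 for Acmsd, -1.74 to 0.43 for Aqp2, -0.39 to 0.32 for Ass1, -3.86 to 1.13 for Atf3, -3.04 to 0.77 for Cdkn1a, -0.38 to 0.02 for Cela2a, -0.31 to 0.16 for Cps1, -5.06 to 0.41 for Cyp2b10, -0.04 to 0.78 for Cyp7a1, -0.13 to 0.09 for Ercc1, -2.01 to 0.92 for Got1, -0.83 to 0.60 for Herpud1, -1.56 to 0.48 for Hmox1, -0.04 to 0.09 for Igf1, -0.59 to 0.91 for Pck1, -1.05 to 1.14 for Sds, -1.82 to 0.51 for Sdsl and -1.64 to 1.31 for Tat. List medians took the other sign in 84 of 779 cases, 13 of them without control 4.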

Other observations

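Haem and erythroid transcripts were higher in some high-protein libraries. The list named haem synthesis holds 11 genes, among them Hmox1, Blvra and Blvrb of haem breakdown. Of the 11 genes 8 were above control with a median log2 fold change of 0.10, or 0.23 without control 1. Without control 4, 6 were above with a median of 0.10, and without control 4 and high-protein 4 the median was -0.05. Cpox, a mitochondrial step of haem synthesis, was at 83.4 to 127.5 CPM in control and 106.2 to 189.3 CPM with high protein. Of 6 tested erythroid genes 5 were above control with a median of 1.03, or 0.56 without high-protein 4. The summed level of all 8 genes of the erythroid list was 180 to 698 CPM of library totals in control and 359 to 1260 CPM with high protein, so the groups overlapped.

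Stress and turnover lists gave smaller medians, several of which took the other sign without 1 library. NRF2 targets and glutathione defence had 14 of 23 genes above control (median 0.10, and 0.02 with 12 above without control 4). Endoplasmic reticulum chaperones had 9 of 18 (0.02) and 2 without control 4 (-0.14). Autophagy had 9 of 22 (-0.03) and 15 without control 4 (0.08), and acute phase proteins had 7 of 22 (-0.14) and 12 without control 4 (0.04). The cell cycle had 8 of 25 (-0.21) and 3 without control 4 (-0.31), with a median of 0.05 without control 3. The ATF4 list had 7 of 21 (-0.32) and 13 without control 4 (0.16). Mitochondrially encoded genes had 10 of 13 above control (0.17, and 0.05 without high-protein 3).

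Among other cell types, sinusoidal endothelial genes had 7 of 14 above control (median 0.00) and 13 without control 4 (0.32). Stellate genes had 7 of 14 (0.00) and 5 without control 4 (-0.05). Recruited macrophage and neutrophil genes had 8 of 12 above control (0.30), with 0.15 without control 4. B cell genes had 5 of 12 (-0.27), with -0.47 without control 4 and 0.08 without control 3. Pancreas and gut genes had 1 of 5 (-0.24), with -0.04 without control 4, and hepatocyte genes 5 of 14 (-0.06), with 0.12 without control 4. The Kupffer cell median of 0.20 ran from 0.10 without high-protein 3 to 0.33 without control 3.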
